A study of Mus musculus with 6 samples.

Results

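The 10 genes described here make, sense, carry and clear extracellular adenosine in left ventricular myocardium. They are the ectonucleotidases Nt5e, Entpd1 and Enpp1, the receptors Adora1, Adora2a, Adora2b and Adora3, the transporter Slc29a1, and the clearing enzymes Ada and Adk. They were chosen by name, with earlier results of these data known, so p-values of single members are not those of a blind choice. Each matched 1 row among the 47729 Ensembl gene IDs in the deposited table (GENCODE M21 symbols, mouse build GRCm38). The series is bulk RNA sequencing of mouse left ventricle 9 days after transverse aortic constriction (TAC), in which a narrowed aorta loads the ventricle with pressure. The group labelled Treg has 3 libraries, and the series title speaks of systemically given regulatory T cells that were induced in vitro and deprived of CD28. The other group has 3 libraries labelled control. Every sample in both groups had undergone TAC. The labels leave unsaid what the controls were given, the cell dose, and the strain, sex and age of the mice. They do not say whether each library came from its own animal either, so a p-value below reflects only how much these libraries vary.

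Cells under strain release ATP, and enzymes on the outer cell surface trim it step by step. CD39, encoded by Entpd1, takes ATP and ADP down to AMP. CD73, encoded by Nt5e, takes the last phosphate off AMP and so yields adenosine. ENPP1 instead splits ATP directly into AMP and pyrophosphate, an inhibitor of calcification. Adenosine then acts on G protein-coupled receptors: the products of Adora1 and Adora3 lower cyclic AMP, and those of Adora2a and Adora2b raise it. In the heart the Adora1 receptor slows the beat and the Adora2a receptor widens coronary vessels, and CD39 and CD73 on regulatory T cells are a known source of adenosine that restrains other immune cells. The signal ends when adenosine enters cells through ENT1, encoded by Slc29a1, and is phosphorylated by adenosine kinase (Adk) or deaminated by adenosine deaminase (Ada).

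The libraries held between 28937253 and 29979080 estimated counts, so depth differed little. Cardiomyocyte markers were abundant in all 6 (summed level 37206 to 51328 CPM in the Treg libraries and 31360 to 45954 in the controls; CPM scales counts to a common library size, here after TMM scaling). Control replicate 3 stood apart: log2 CPM over all genes tested correlated at 0.931 to 0.954 between it and the other libraries, against 0.965 to 0.990 among those. Treg replicate 3 stood apart in the atrial light chain Myl7, at 1201.5 counts there and 1 to 6 in the other 5 libraries. Results that rest on either library are given with and without it. In bulk tissue, fewer cells of a type and less RNA per cell cannot be told apart, and this touches every value below.

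No member passed the test. In the quasi-likelihood fit of edgeR, 0 of the 9 members tested had an adjusted p under 0.05, and 0% of all 17365 genes did. At an unadjusted p under 0.05 there were 2 of the 9 members, Nt5e and Entpd1, and 16.5% of all genes. DESeq2 called 1 member, Nt5e, and 3.53% of the genes to which it gave an adjusted p; limma-voom called 0 members. The groups did not overlap for 3 members, against 25.4% of all genes: Nt5e and Entpd1 lay lower in every Treg library (11.7% of all genes did so) and Slc29a1 lay higher (13.7% of all genes). These shares are close to the background, so the members as a set do not stand out by their counts. Of the 9, 6 had a log2 fold change below 0, as did 52.0% of all genes. Adora3 was too low to be tested.

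**Figure D1:**
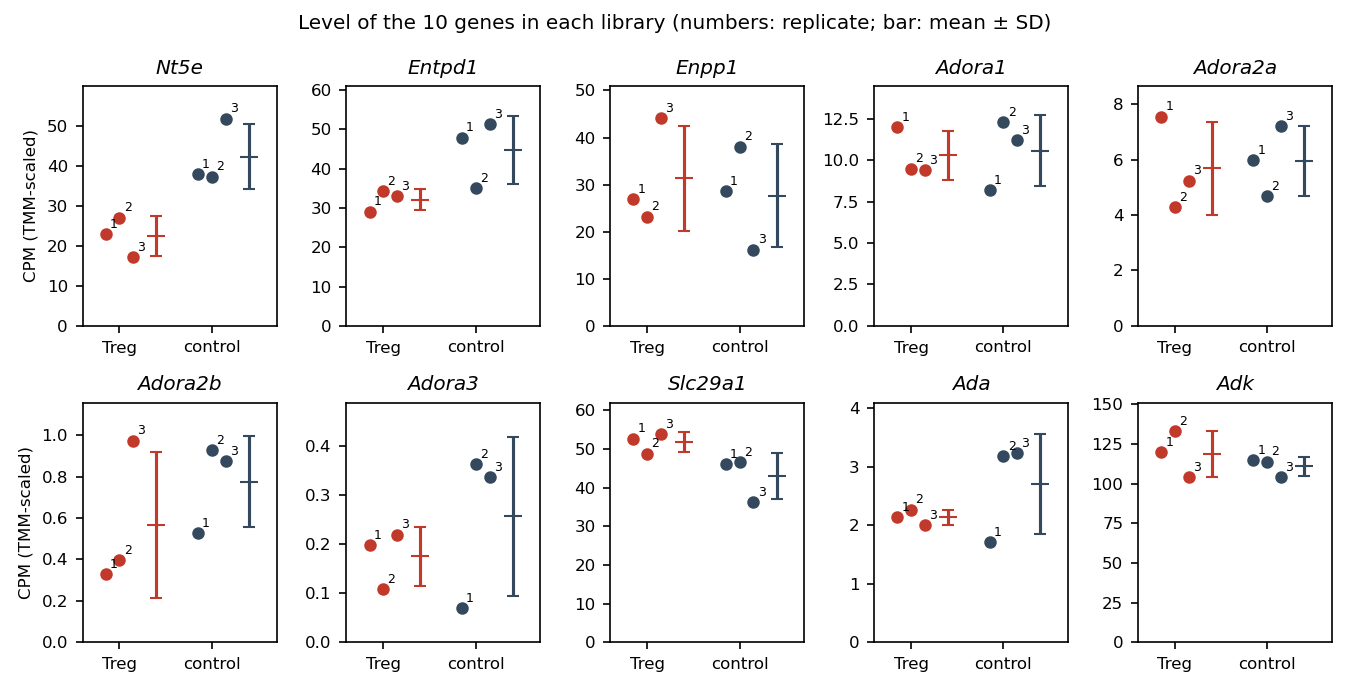
Level of each of the 10 genes by library, in CPM on TMM-scaled library sizes, with Treg libraries in red at the left of each panel and controls in dark blue at the right; numbers mark the replicate, and the bars give the mean and SD of 3 libraries. Nt5e lies at 17.1 to 27.05 CPM in Treg libraries against 37.3 to 51.8 in controls, Entpd1 and Slc29a1 also do not overlap, and the other 7 genes do.

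Nt5e, the enzyme that forms adenosine from AMP, showed the clearest difference. It was at 22.9, 27.05 and 17.1 CPM in Treg replicates 1, 2 and 3, against 37.9, 37.3 and 51.8 CPM in control replicates 1, 2 and 3. The highest Treg library thus lay below the lowest control, and the extremes were the 2 libraries numbered 3. The group means were 22.3 ± 5.02 CPM in Treg and 42.3 ± 8.20 CPM in control (SD, n = 3 each), from 543 to 750 estimated counts per Treg library and 1079 to 1538 per control library. The log2 fold change was -0.92 ± 0.21 (SE), with a 95% interval of -1.41 to -0.43 for this gene alone. Its unadjusted p of 0.00268 was undercut by 292 other genes, 1.68% of those tested, and edgeR's adjusted p was 0.156 (DESeq2 adjusted p = 0.00889). The direction held without any 1 library, with log2 fold changes of -1.08 (without Treg replicate 2) to -0.75 (without control replicate 3) and edgeR adjusted p of 0.0915 to 0.585. With both libraries numbered 3 left out it was -0.60.

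Nt5e lies on chromosome 9 (chr9:88327197-88372092, plus strand, GRCm38), with no other annotated gene overlapping it. Its promoter is shown because it is the member with the clearest difference, together with the 2 promoters of Entpd1, the other ectonucleotidase that was lower in every Treg library. The sequences are those of RefSeq on GRCm38.p6, from 250 bases before to 50 bases after each annotated start, and read 5′ to 3′. The Nt5e window is chr9:88327359-88327658; its RefSeq start lies 412 bases inside the GENCODE gene. The Entpd1 windows are chr19:40612116-40612415 and chr19:40659520-40659819, all 3 on the plus strand. Capitals mark matches, on either strand, to any of 5 motifs: ACGTG (core of the hypoxia response element), TGACG (core of the cAMP response element), GGGCGG (GC box), CAGAC (Smad box) and TGANTCA (AP-1 site).
Nt5e: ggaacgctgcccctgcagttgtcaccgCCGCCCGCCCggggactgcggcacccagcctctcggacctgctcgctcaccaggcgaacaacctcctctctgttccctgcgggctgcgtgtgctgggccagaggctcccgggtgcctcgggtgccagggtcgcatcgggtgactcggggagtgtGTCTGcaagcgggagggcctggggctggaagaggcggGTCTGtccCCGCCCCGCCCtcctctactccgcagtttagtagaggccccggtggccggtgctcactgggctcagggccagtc
Entpd1 first promoter: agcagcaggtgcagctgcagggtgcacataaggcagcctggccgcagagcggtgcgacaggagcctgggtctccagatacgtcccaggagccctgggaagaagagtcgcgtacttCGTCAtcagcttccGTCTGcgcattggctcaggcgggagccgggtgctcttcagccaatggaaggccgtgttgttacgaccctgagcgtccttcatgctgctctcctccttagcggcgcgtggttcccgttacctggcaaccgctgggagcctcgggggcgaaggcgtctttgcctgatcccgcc
Entpd1 second promoter: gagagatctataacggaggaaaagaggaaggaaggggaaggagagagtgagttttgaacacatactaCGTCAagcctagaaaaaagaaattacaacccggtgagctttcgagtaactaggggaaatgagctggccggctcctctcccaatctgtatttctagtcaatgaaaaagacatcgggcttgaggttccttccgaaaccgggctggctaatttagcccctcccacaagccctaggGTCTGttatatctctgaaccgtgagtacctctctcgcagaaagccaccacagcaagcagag
The Nt5e window holds 4 GC boxes, in 2 overlapping pairs, and 2 Smad boxes; the other motifs have no match in it. Each Entpd1 window holds 1 TGACG and 1 CAGAC and no GC box. Of 32851 promoters of the same length, 35.7% hold a GC box, 49.6% a Smad box and 20.8% TGACG, while 19.6% hold ACGTG and 7.81% an AP-1 site. The matches describe the letters of these windows and nothing more.

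Entpd1, which feeds AMP to CD73, differed in the same direction by a smaller amount. It stood at 29.1, 34.4 and 33.00 CPM in Treg replicates 1 to 3, against 47.9, 35.1 and 51.3 CPM in control replicates 1 to 3. The groups were separated by a narrow gap, since control replicate 2 lay just above the highest Treg library. The means were 32.2 ± 2.74 CPM in Treg and 44.8 ± 8.56 CPM in control (SD, n = 3 each), a log2 fold change of -0.48 ± 0.17 (95% interval -0.87 to -0.09; edgeR adjusted p = 0.255, DESeq2 adjusted p = 0.202). Leaving out 1 library gave -0.63 (without control replicate 2) to -0.37 (without control replicate 3). The gene spans chr19:40612366-40741602 and holds a pseudogene, Gm8783, inside an intron, at 105.75 to 126.82 counts in Treg libraries and 100.96 to 139.62 in controls; how reads were divided between them was not tested.

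Enpp1, the pyrophosphate-forming enzyme, did not separate the groups. It was at 26.9, 23.2 and 44.1 CPM in Treg replicates 1 to 3, against 28.7, 38.1 and 16.2 CPM in control replicates 1 to 3. Its highest value was in Treg replicate 3 and its lowest in control replicate 3, the reverse of Nt5e. The log2 fold change of 0.18 ± 0.35 (edgeR adjusted p = 0.807) had a 95% interval from -0.63 to 0.996. It became -0.14 without Treg replicate 3 and -0.09 without control replicate 3, so its direction rested on either library.

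Among the receptors, Adora1 and Adora2a were close between groups. Adora1, the A1 receptor of heart muscle, had 363.5, 262.5 and 298.5 counts in Treg replicates 1 to 3, against 232.5, 373 and 332 counts in control replicates 1 to 3. Its mean was 10.3 ± 1.48 CPM in Treg and 10.6 ± 2.15 CPM in control (SD, n = 3 each). The ranges overlapped almost wholly, with a log2 fold change of -0.04 ± 0.20 (95% interval -0.51 to 0.43; edgeR adjusted p = 0.937). Adora2a, the vasodilator and anti-inflammatory receptor, was at 7.55, 4.29 and 5.24 CPM in Treg replicates 1 to 3, against 5.97, 4.67 and 7.20 CPM in control replicates 1 to 3. Its log2 fold change was -0.06 ± 0.26 (95% interval -0.68 to 0.56; edgeR adjusted p = 0.922). Both the highest and the lowest Adora2a values were in Treg libraries. The intervals of both genes leave room for differences of about the size seen for Entpd1 in either direction, so similar expression is not shown. The signs of both also turned when single libraries were left out (Adora1 -0.18 to 0.09, Adora2a -0.31 to 0.11).

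Adora2b and Adora3 were scarce. Adora2b, the low-affinity A2B receptor, had 10, 11 and 31 counts in Treg replicates 1 to 3, against 15, 27.5 and 26 counts in control replicates 1 to 3. Treg replicate 3 was thus higher than any control, and the other 2 Treg libraries lay below all 3 controls. The log2 fold change was -0.44 ± 0.47 (edgeR adjusted p = 0.638) and became -1.09 without Treg replicate 3 (edgeR adjusted p range over the single omissions 0.462 to 0.918). Adora3, the A3 receptor, had 6, 3 and 7 counts in Treg replicates 1 to 3, against 1.5, 10.5 and 10 in control replicates 1 to 3. A difference in Adora3 was not detectable at this depth. Its exons overlap those of Tmigd3 on the same strand, which had 6, 3 and 5 counts in Treg and 2.5, 9.5 and 8 in control libraries, so the reads of this locus cannot be assigned to either gene with certainty.

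Slc29a1, the ENT1 transporter that takes adenosine into cells, was the 1 member that lay higher in every Treg library. It was at 52.7, 48.8 and 53.9 CPM in Treg replicates 1 to 3, against 46.01, 46.7 and 36.2 CPM in control replicates 1 to 3. The gap between the groups was small, and control replicate 3 was the lowest library. The means were 51.8 ± 2.64 CPM in Treg and 42.96 ± 5.91 CPM in control (SD, n = 3 each), a log2 fold change of 0.27 ± 0.14 (95% interval -0.05 to 0.59; edgeR adjusted p = 0.359, DESeq2 adjusted p = 0.463). Without control replicate 3 it was 0.16. An antisense gene, Gm17080, overlaps its exons, at 237.58 to 284 counts in Treg libraries and 194.25 to 272.5 in controls. The library kit kept strand, but no label says whether counting used it, so reads of the pair may be mixed. Adora1 has the same limit with Mybph, at 19.5 to 25.5 counts in Treg libraries and 33.5 to 45 in controls.

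The clearing enzymes showed no separation. Adk, which returns adenosine to AMP inside cells and is the main route at low adenosine, was at 120, 133 and 104 CPM in Treg replicates 1 to 3, against 115, 114 and 104 CPM in control replicates 1 to 3. It was the steadiest of the members among controls, with an SD of 0.08 on the log2 CPM scale, and its log2 fold change was 0.10 ± 0.14 (95% interval -0.22 to 0.42; edgeR adjusted p = 0.723). Ada, which deaminates adenosine to inosine, was at 2.14, 2.27 and 2.01 CPM in Treg replicates 1 to 3, against 1.72, 3.18 and 3.23 CPM in control replicates 1 to 3. All Treg values fell inside the control range, and the SD on the log2 CPM scale was 0.09 in Treg and 0.51 in control. The log2 fold change of Ada was -0.34 ± 0.28 (95% interval -1.001 to 0.32; edgeR adjusted p = 0.551), from -0.57 without control replicate 1 to -0.20 without control replicate 3. A smaller SD in Treg than in control was seen for 5 of the 9 members tested and for 76.8% of all genes.

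**Figure D2:**
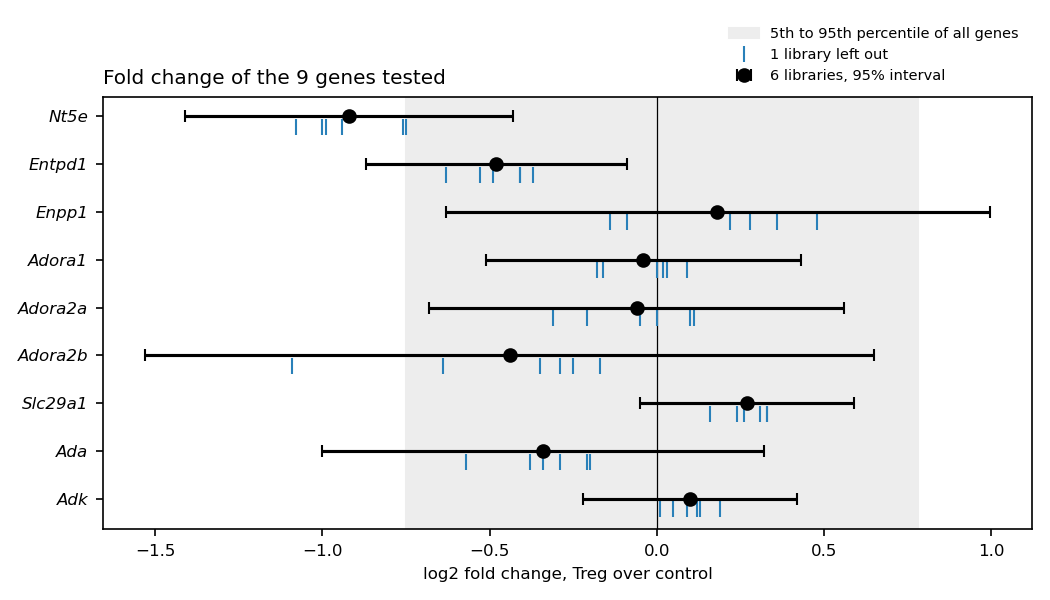
Log2 fold change, Treg over control, of the 9 genes tested (horizontal axis), with 95% intervals from the fit of 6 libraries (black) and the estimates with 1 library left out (blue ticks below); the grey band spans the 5th to 95th percentile of all genes tested, from -0.75 to 0.78. Nt5e, at -0.92, is the one estimate outside the band, and the ticks of Enpp1, Adora1 and Adora2a fall on both sides of 0.

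Scaled to gene length, Adk and Slc29a1 were the most abundant members and Adora2b and Adora3 the rarest. In CPM per kb of annotated exon, Adk had the highest mean level over the 6 libraries, 13.5 ± 1.29 (SD), followed by Slc29a1 at 11.8 ± 1.58, Entpd1 at 6.89 ± 1.60, Nt5e at 3.76 ± 1.46 and Enpp1 at 2.88 ± 0.986. Adora2a (1.90 ± 0.437), Adora1 (1.80 ± 0.287) and Ada (1.21 ± 0.315) came next, and Adora2b (0.364 ± 0.155) and Adora3 (0.0580 ± 0.0317) were last. From Adk down to Ada the ranges of neighbouring genes overlapped over the 6 libraries. Ada and Adora2b did not overlap, nor did Adora2b and Adora3. Within the groups Nt5e stood differently to Enpp1: it spanned 1.98 to 3.14 CPM per kb in Treg libraries, overlapping Enpp1 at 2.26 to 4.30, but 4.34 to 6.02 in controls, above Enpp1 at 1.58 to 3.71. Using the longest coding transcript in place of all annotated exons, a choice made after seeing the data, left the order of the 10 genes as it was.

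**Figure D3:**
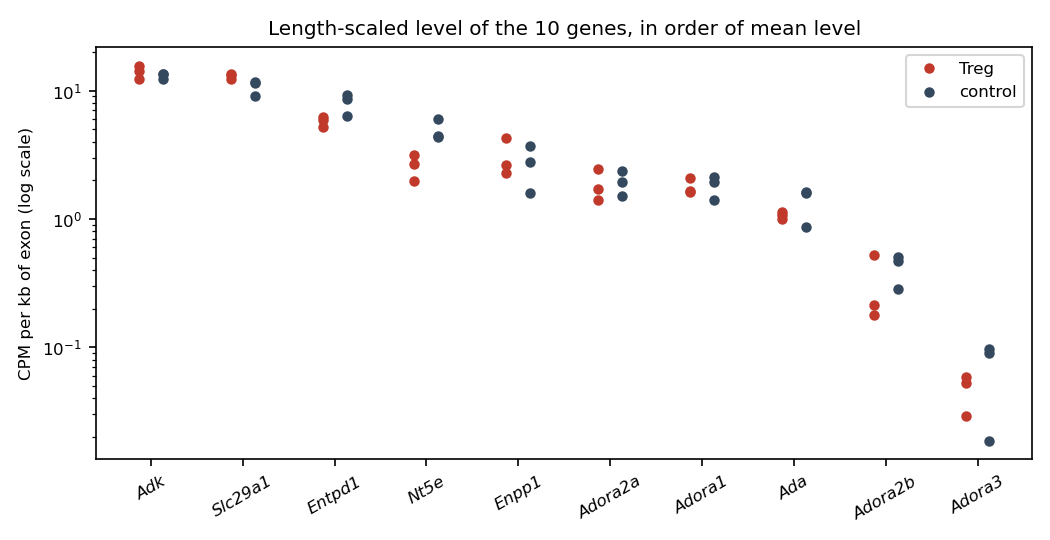
Length-scaled level of the 10 genes in CPM per kb of exon (log axis), in order of the mean over 6 libraries; each point is a library, with Treg in red on the left and control in dark blue on the right. Levels run from 12.2 to 15.6 for Adk down to 0.0188 to 0.0976 for Adora3, and only Entpd1, Nt5e and Slc29a1 have groups that do not overlap.

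The rest of purine metabolism and signalling was read through 7 lists, of which 86 genes were tested. By edgeR 0 of them passed in either direction. At an unadjusted p under 0.05 there were 11 higher and 4 lower in Treg, against 8.23% and 8.31% of all genes; DESeq2 called 4, all higher, and limma-voom 0. The groups did not overlap for 14 higher and 7 lower, against 13.7% and 11.7% of all genes. The median log2 fold change was -0.01, beside -0.02 over all genes. The median thus lay near the background, while the counts leaned to the higher side. DESeq2 called 3.53% of all genes to which it gave an adjusted p. Without control replicate 3, edgeR called 4 genes of the lists, all higher, and 1.30% of all genes. Whether the lists differ from the background was not tested.

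The smallest p in the lists belonged to Kcnj3. Kcnj3 and Kcnj5 encode the subunits of the potassium channel that A1 and muscarinic receptors open through G protein beta-gamma subunits. Kcnj3 was at 34.00, 37.7 and 30.1 CPM in Treg replicates 1 to 3, against 16.6, 15.5 and 11.98 CPM in control replicates 1 to 3. Every Treg library was well above every control, with a log2 fold change of 1.21 ± 0.17 (edgeR adjusted p = 0.0871, DESeq2 adjusted p = 2.92e-06), and it passed in edgeR without control replicate 3 (adjusted p = 0.0199), as did 1.30% of all genes in that fit. Kcnj5 was at 62.6, 82.97 and 54.04 CPM in Treg, against 45.8, 39.9 and 28.5 CPM in control (log2 fold change 0.81 ± 0.22; edgeR adjusted p = 0.199). Both channel genes are known to be abundant in atrial muscle. The 4 atrial markers summed to 582, 641 and 1018 CPM in Treg replicates 1 to 3. In control replicates 1 to 3 the sums were 1437, 805 and 229 CPM, so the groups overlapped. The sum was mostly Nppa, at 579, 638 and 899 CPM in Treg and 1432, 801 and 226 CPM in control. It therefore did not follow the other atrial markers and is no measure of atrial muscle by itself. Myl7, Sln and Myl4 were at 37.7, 12.5 and 68.5 CPM in Treg replicate 3 and at 4.67 CPM or less in every other library. The part of atrial muscle in the channel genes was not tested. In the same list Rapgef4, the cyclic AMP sensor EPAC2, had 0.56 ± 0.19 (edgeR adjusted p = 0.244), and Gnai1, an inhibitory G protein subunit, had -0.85 ± 0.29 (edgeR adjusted p = 0.253). The list's median was -0.00, with 13 of 26 fold changes on each side of 0.

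The list of other surface and secretory-pathway nucleotidases and phosphatases was mixed, with 7 of 12 tested genes above 0 in log2 fold change and 5 below. Of these 12, 3 lay higher in every Treg library and 0 lay lower, beside 13.7% and 11.7% of all genes. The 3 were Entpd5, at 124 ± 5.63 CPM in Treg and 77.7 ± 13.9 CPM in control (SD, n = 3 each; log2 fold change 0.68, edgeR adjusted p = 0.156, DESeq2 adjusted p = 0.00727), Entpd6 (0.44, edgeR adjusted p = 0.241) and Entpd4 (0.32, edgeR adjusted p = 0.266). These are relatives of CD39 that work mainly inside the endoplasmic reticulum and Golgi. The smallest p on the lower side belonged to Entpd7, at -0.58 (edgeR adjusted p = 0.359), and Bst1, a surface enzyme that acts on NAD, stood at -0.85 (edgeR adjusted p = 0.387). Without control replicate 3, Entpd5 (0.83, edgeR adjusted p = 0.0285) and Enpp2 (1.39, edgeR adjusted p = 0.0382) passed the test, as did 1.30% of all genes in that fit. Enpp2 makes lysophosphatidic acid and was named after its values were seen. The 6 cytosolic and mitochondrial nucleotidases tested had a median of -0.03, led by Nt5c at -0.40 (edgeR adjusted p = 0.321) and Nt5c3 at 0.23 (edgeR adjusted p = 0.418). Of 4 other nucleoside transporters, Slc28a2, which carries purines into cells with sodium, stood at 25.3 ± 1.45 CPM in Treg and 18.6 ± 3.88 CPM in control (0.45, edgeR adjusted p = 0.279).

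Dpp4, a surface protease that anchors adenosine deaminase in humans, stood at 2.65 ± 0.472 CPM in Treg and 0.966 ± 0.347 CPM in control (log2 fold change 1.45 ± 0.32; edgeR adjusted p = 0.148, DESeq2 adjusted p = 0.0109). It led the list of salvage, deamination and adenylate balance (18 genes tested, median -0.08). On the lower side of that list were the salvage enzyme Hprt, at -0.41 (edgeR adjusted p = 0.255), and the adenylate kinase Ak6, at -0.31 (edgeR adjusted p = 0.300). Among 8 genes of ATP release, Panx1, a channel that lets ATP out of stressed cells, had 5.996 ± 1.02 CPM in Treg and 9.37 ± 0.765 CPM in control (-0.64 ± 0.18; edgeR adjusted p = 0.198). Ank, a membrane protein of pyrophosphate and ATP export, had 0.25 (edgeR adjusted p = 0.377). Among 12 receptors for extracellular nucleotides, P2ry1, the ADP receptor, was at 15.3 ± 1.36 CPM in Treg and 7.35 ± 2.30 CPM in control. Its log2 fold change was 1.06 ± 0.25 (edgeR adjusted p = 0.160, DESeq2 adjusted p = 0.0100, edgeR adjusted p = 0.0393 without control replicate 3). P2rx6 had 0.99 (edgeR adjusted p = 0.291), and P2ry2 led the lower side at -0.43 (edgeR adjusted p = 0.320).

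**Figure D4:**
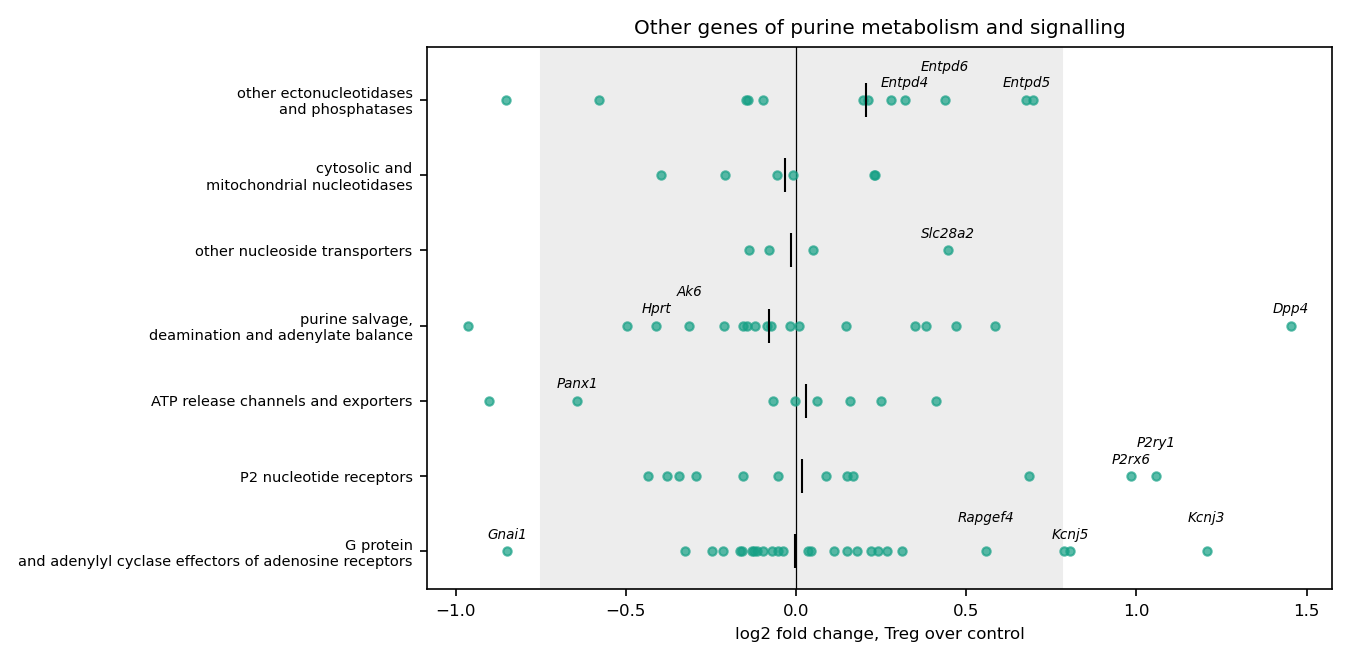
Log2 fold change, Treg over control, of the 86 other purine genes tested, 1 row per list and 1 point per gene; black ticks mark list medians, the grey band spans the 5th to 95th percentile of all genes (-0.75 to 0.78), and names are given for the genes that the naming rule picks with an unadjusted p under 0.05. List medians lie between -0.08 and 0.20, and 10 genes (11.6%) lie outside the band, 6 above it (Dpp4 at 1.45 the farthest). The 4 below it are Gda (-0.96, not picked by the naming rule), Slc17a9 (-0.90), Bst1 (-0.85) and Gnai1 (-0.85). By its construction 10.01% of all genes lie outside.

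The genes most like Nt5e across libraries are described here, with the members given separately below. The closest genes were outside the purine lists, but this says little about the pathway. Its genes are few among all those compared, so a short list of the closest would mostly lack them by chance too. Likeness was the root mean square difference between log2 CPM profiles, each centred on its own mean over the 6 libraries, among 12819 named genes averaging 1 CPM or more; the median gene differed from Nt5e by 0.572. The closest were Lss, the lanosterol synthase of cholesterol synthesis (0.096), Perp, a desmosome protein (0.099), Mybph, a myosin-binding protein whose gene overlaps Adora1 (0.134), Cidea, a lipid droplet protein (0.140), and Slc6a6, the taurine transporter (0.152). Their log2 fold changes lay between -0.98 (Cidea) and -0.73 (Mybph). Values near that of Nt5e follow from picking genes with a like profile and are no separate result. Of the members, Entpd1 was nearest to Nt5e at 0.336, with 3.59% of genes closer, then Ada at 0.440; Enpp1 was farthest at 0.902. The values describe 6 libraries of 2 groups.

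CD39 and CD73 are carried by regulatory T cells, but also by fibroblasts, endothelium and other leukocytes, so marker lists stand beside them. Foxp3, which defines regulatory T cells, was at 1.68, 1.51 and 1.76 CPM in Treg replicates 1 to 3 and at 1.68, 1.42 and 1.72 CPM in control replicates 1 to 3 (log2 fold change 0.04, edgeR adjusted p = 0.939). All 5 regulatory T cell markers were above 0 in all 6 libraries, with Ctla4 at only 1 to 8 counts. Their summed level was 9.23 to 9.33 CPM in Treg and 4.44 to 8.42 CPM in control, the 4.44 being control replicate 3. The largest part of the Treg sums was Ikzf2, at 4.18 to 4.80 CPM in Treg and 1.25 to 4.001 CPM in control. Il2ra was at 0.758 to 1.37 CPM in Treg (23 to 38 counts) and 0.0993 to 0.597 CPM in control (3 to 17 counts). Its log2 fold change was 1.69 (edgeR adjusted p = 0.235). Of the 4 markers tested, 0 had a fold change below 0, with a median of 0.43. In the T cell list 6 of 10 markers were above 0 in all libraries, and the sum was 4.51 to 5.67 CPM in Treg and 4.07 to 20.4 CPM in control. The highest sum, in control replicate 3, was mostly Cd3e (15.7 CPM), and the other 9 markers summed to 3.93 to 5.28 CPM in Treg and 2.88 to 4.71 CPM in control, with the receptor chain gene Cd3d at 0 in 2 Treg libraries, Cd3g at 0 in control replicates 2 and 3 and Trac at 0 in control replicate 3.

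Fibroblast markers (7 of 7 above 0 in all libraries) summed to 2750 to 5482 CPM in Treg and 4159 to 6247 CPM in control, and the groups overlapped. Their fold changes were mixed, with 4 of 7 below 0. Activated fibroblast markers (5 of 5) summed to 784 to 1288 CPM in Treg and 1106 to 2192 CPM in control. Those groups overlapped too, with 4 of 5 fold changes below 0, a median of -0.53 and 0 genes called by edgeR. Endothelial markers (7 of 7) summed to 553 to 671 CPM in Treg and 489 to 707 in control, and macrophage markers (8 of 8) to 295 to 389 in Treg and 248 to 399 in control. Neutrophil markers (7 of 7) summed to 19.1, 16.7 and 8.70 CPM in Treg replicates 1 to 3. In control replicates 1 to 3 they summed to 7.26, 10.4 and 41.4 CPM. Of their 7 fold changes 6 were below 0, with a median of -0.87. Control replicate 3 was also highest in Nt5e and Entpd1. In replicates 1 and 2 the neutrophil sums were higher in Treg than in control, while Nt5e and Entpd1 were lower. Mast cell markers (6 of 7) were at 6.96 to 11.3 CPM in Treg and 5.22 to 5.90 in control. That sum was mostly Kit, at 4.47 to 8.67 CPM in Treg and 3.80 to 4.49 CPM in control, where the groups overlapped. Mcpt4 did not overlap, at 0.528 to 0.722 CPM in Treg and 0.0673 to 0.165 CPM in control (edgeR adjusted p = 0.0989). Tpsb2 and Cma1 also lay higher in every Treg library, all at few counts, and Tpsab1 overlapped. Of the 5 mast cell markers tested, 0 had a fold change below 0, with a median of 0.89. Schwann cell markers (4 of 4) were at 6.63 to 8.14 CPM in Treg and 3.44 to 5.86 in control. The sums of these 2 lists, like that of the regulatory T cell one, lay higher in every Treg library, as did 13.7% of all genes singly. In each of these lists 0 genes were called by edgeR. The part of these cell types in the values of the members was not tested.

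**Figure D5:**
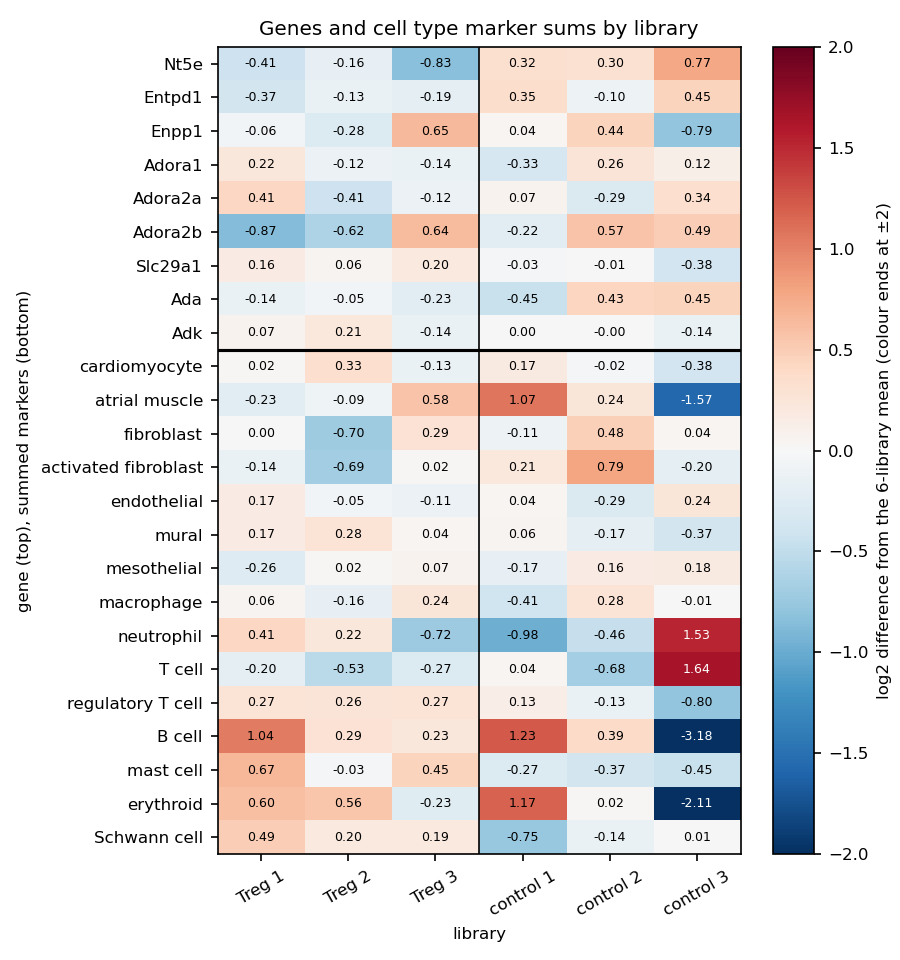
Log2 difference from the 6-library mean for the 9 genes tested (top) and for the summed CPM of 15 marker lists (bottom), with Treg libraries in the 3 left columns and controls in the 3 right ones; colour ends at 2 in either direction and each cell prints its value. Nt5e is below its mean in all Treg libraries and above it in all controls, while control replicate 3 holds the most extreme T cell (mostly Cd3e), B cell and erythroid sums.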

How the data were processed

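Left ventricular RNA was sequenced in 6 libraries, 3 labelled Treg and 3 labelled control. Per the labels' protocols, total RNA from frozen tissue went into stranded mRNA libraries read from both ends. The submitters' processing notes name GRCm38 as the build and, as tools, featureCounts 2.0.6, HISAT2 2.1.0, Cuffdiff 2.2.1 and Trimmomatic 0.39; what each did, how reads were counted and on which annotation is not stated there. The values the authors deposited are estimated counts per gene, not normalized; 46.5% to 50.0% of those above 0 are fractional, which leaves genes that share reads uncertain. The table's 6 further columns match no sample listed here and were not used.

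Estimated counts were rounded (the largest change of a library total was 0.0087%), filtered with filterByExpr, scaled with TMM and tested with edgeR 4.0.16 in R 4.3.3 (robust quasi-likelihood F tests, two-sided, Benjamini-Hochberg over all 17365 genes, threshold 0.05). Standard errors are the fold change over the square root of F. The test had been chosen for counts, and the table holds estimated ones. GENCODE M21 gave symbols for 47310 IDs; 419 had none. Of the 102 genes in the wider lists, 101 were in the table under the listed symbol and Pnp was not matched. Promoters came from a RefSeq table that matched 9 of the 10 members. No libraries were identical (chi-square per degree of freedom 19.4 to 153.0).

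Named genes were the members, up to 3 wider-list genes with the smallest p per direction, the 5 genes nearest to Nt5e, and marker lists. Enpp2 and Gda were named outside this rule. Members and lists were chosen with earlier results of these data known. Alternatives were DESeq2 1.42.0, limma-voom (limma 3.58.1), RLE scaling, 2 other filters, removal of mitochondrially encoded genes, unrounded counts, the replicate block, a threshold of 0.1 and omitted libraries. The tests were checked on simulated counts.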

Additional observations from a re-analysis of the deposited data

How the results depend on the processing

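By edgeR the number of genes past the threshold was 0 with RLE scaling, a mean of at least 1 CPM, mitochondrial genes removed, unrounded counts and the replicate block, and 0 with limma-voom. It was 626 with DESeq2, 38 without a filter on low counts, 82 at an adjusted p under 0.1, 119 without control replicate 3 and Treg replicate 3, and 0 to 230 with 1 library left out, the 230 being without control replicate 3. Members past the threshold numbered 1 with DESeq2 (Nt5e, log2 fold change -0.92) and 0 in every other alternative run. In the wider lists 0 genes passed as lower in any alternative. Those higher numbered 4 with DESeq2 and 1 each without a filter, at an adjusted p under 0.1 and without both libraries numbered 3. With 1 library left out they numbered 0 to 4, the 4 being without control replicate 3, where 1.30% of all genes passed. These 4 include Enpp2, named after its values were seen. The sign of 6 of the 9 members tested, Nt5e, Entpd1, Adora2b, Slc29a1, Ada and Adk, was the same in all alternatives that could be fitted. Enpp1 turned from 0.18 to -0.43 without both libraries numbered 3 and spanned -0.14 to 0.48 with 1 library left out. Adora1 turned from -0.04 to 0.06 and spanned -0.18 to 0.09; Adora2a turned from -0.06 to 0.15 and spanned -0.31 to 0.11. The cause was not tested. The labels do not say whether replicate numbers pair the samples. Correlations of same-numbered deviations were -0.15, -0.23 and 0.04, and no Treg library matched best with the control of its own number. With 3 libraries per group these values cannot settle whether the samples were paired. With the replicate block Nt5e had -0.93 and the count of calls stayed 0. Depth limits Adora2b and Adora3.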
